A study of Mus musculus with 40 samples.

Results

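The 10 cytokine and chemokine genes *Il1a*, *Il1b*, *Tnf*, *Ccl2*, *Ccl3*, *Ccl4*, *Cxcl10*, *Cx3cl1*, *Il18* and *Il33* were followed in the left somatomotor cortex of injured mice. They were chosen by gene name, and all 10 were found among the 55539 features of the count table. Bulk RNA sequencing was carried out on cortex from female 3xTg-AD mice, aged 2–4 months, which carry mutant transgenes that model Alzheimer's disease. Every group carried these transgenes, so no group shows the wild-type response. Mice received 1, 2, 3, 4 or 5 once-daily closed-head injuries (CHI) by weight drop onto the intact skull under isoflurane, and sham mice received the anesthesia alone. Sham comprised 4 samples, and 1xCHI comprised 3 samples at 0.5 h, 3 at 4 h and 4 at 24 h after the injury. For 3xCHI there were 3, 2 and 4 samples at these times, for 5xCHI 3, 3 and 4, and for 2xCHI and 4xCHI 3 each at 24 h only. In total 39 samples in 12 groups were compared, after 1 of the 40 samples was set aside as the study had done. The question was whether, when and after how many injuries the message of each gene changed.

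The 10 genes encode secreted or membrane-shed signals. Interleukin 1 alpha and beta and tumor necrosis factor act early in inflammation, and resident microglia are a main source of them in the injured brain. The chemokines Ccl2, Ccl3, Ccl4 and Cxcl10 are made on demand and attract monocytes, microglia and T cells, whereas Cx3cl1 (fractalkine) is made constantly by neurons and is read by microglia through Cx3cr1. Interleukins 18 and 33 belong to the interleukin 1 family: the former is stored as a precursor cleaved by caspase-1, and the latter is a nuclear protein released by damaged cells.

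Counts separated the genes into 3 classes, stated here because they limit everything that follows. *Cx3cl1*, *Il18* and *Il33* had at least 10 counts in every sample, with median counts of 11598, 243 and 711. *Il1a*, *Il1b*, *Ccl3* and *Cxcl10* had median counts of 9, 7, 5 and 7. These were too low for the count test, because each fell under 10 counts in 22 to 26 of 39 samples and the filter allowed this in 4 samples. *Tnf*, *Ccl2* and *Ccl4*, with median counts of 1, 2 and 3, were too low to judge by the count model. *Tnf* was listed at 0 in 15 samples and never exceeded 8 counts. In the 4 sham samples together, *Tnf* had 2 counts, *Ccl2* 2 counts and *Ccl4* 1 count. For these 3 genes a rise from sham could be seen and a fall could not. Libraries held 15926014 to 27859547 summed counts (median 19028778).

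Promoter sequences from RefSeq were at hand for 8 of the 10 genes, and *Ccl2* and *Ccl4* were the missing entries. The 250 bases before the start are shown for *Cxcl10*, *Ccl3*, *Il1a*, *Il1b* and *Tnf*, which are all 5 low members with an entry. Each is written 5′ to 3′ on the gene's own strand, with its position in build GRCm38.p6. Capitals mark matches to motifs of inflammatory transcription factors, searched on both strands: NF-kB (by name), AP-1 (TGANTCA) and IRF (GAAANNGAAA).
Cxcl10, chr5:92348890-92349139, minus strand: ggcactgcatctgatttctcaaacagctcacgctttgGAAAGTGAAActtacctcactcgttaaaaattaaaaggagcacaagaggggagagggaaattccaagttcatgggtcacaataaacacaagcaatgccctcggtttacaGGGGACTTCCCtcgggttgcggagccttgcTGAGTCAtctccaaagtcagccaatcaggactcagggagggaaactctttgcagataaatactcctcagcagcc
Ccl3, chr11:83649379-83649628, minus strand: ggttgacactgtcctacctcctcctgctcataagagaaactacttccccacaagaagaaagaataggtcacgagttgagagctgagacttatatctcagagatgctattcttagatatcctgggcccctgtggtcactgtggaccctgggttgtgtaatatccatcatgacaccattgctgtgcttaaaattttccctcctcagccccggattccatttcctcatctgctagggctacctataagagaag
Il1a, chr2:129309973-129310222, minus strand: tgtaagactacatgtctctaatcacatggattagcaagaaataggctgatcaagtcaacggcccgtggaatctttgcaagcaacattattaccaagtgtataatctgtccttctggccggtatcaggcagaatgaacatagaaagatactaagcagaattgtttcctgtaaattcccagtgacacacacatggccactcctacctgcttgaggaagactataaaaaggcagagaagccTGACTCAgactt
Il1b, chr2:129371140-129371389, minus strand: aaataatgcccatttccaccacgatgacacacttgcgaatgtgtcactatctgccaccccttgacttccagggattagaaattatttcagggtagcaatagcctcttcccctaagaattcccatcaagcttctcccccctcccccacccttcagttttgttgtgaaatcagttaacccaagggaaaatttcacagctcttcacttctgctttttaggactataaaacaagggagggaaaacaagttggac
Tnf, chr17:35202008-35202257, minus strand: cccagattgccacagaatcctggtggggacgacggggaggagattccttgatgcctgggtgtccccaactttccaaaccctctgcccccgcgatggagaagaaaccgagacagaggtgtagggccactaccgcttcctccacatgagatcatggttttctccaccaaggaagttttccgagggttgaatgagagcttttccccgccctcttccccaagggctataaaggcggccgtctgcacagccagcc
The *Cxcl10* stretch held 2 overlapping NF-kB matches, 1 AP-1 match and 1 IRF match. *Il1a* held 1 AP-1 match, and *Il1b*, *Ccl3* and *Tnf* held none of the 3 motifs in this window. Among 32851 promoter stretches of the same length, 5.00% held the NF-kB motif, 6.75% the AP-1 motif and 2.98% the IRF motif. A match is a description of letters only.

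Per kilobase of exon, the mean level over the 39 samples was 150 CPM, normalised read counts scaled by library size and TMM factor, for *Cx3cl1*, 13.3 for *Il33* and 12.6 for *Il18*. *Ccl3* (0.780), *Ccl4* (0.585), *Il1a* (0.295), *Ccl2* (0.264), *Cxcl10* (0.243), *Il1b* (0.240) and *Tnf* (0.0557) followed on the same per-kilobase scale. *Cx3cl1* was above *Il33* in 39 of 39 samples and *Il18* above *Ccl3* in 39 of 39. *Il33* exceeded *Il18* in 24 of 39 samples and *Ccl3* exceeded *Ccl4* in 26 of 39, so these neighbours did not have a fixed order.

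With edgeR's quasi-likelihood test under the study's filter, none of the 3 testable members passed an adjusted p of 0.05 in any comparison. The 7 low members were not tested in this fit. For each injury number against sham, the time points being pooled, 0 of the 3 testable members were called, against 0% of all 15224 features. DESeq2 also called none of the 3. At an unadjusted p under 0.05, 1 of the 3 members differed after 5xCHI (*Cx3cl1*), against 11.6% of all features. After 1xCHI, 2xCHI, 3xCHI and 4xCHI none did, against 17.2%, 4.45%, 3.86% and 1.7%. The 7 low members were therefore described by their counts and by exact two-sided permutation tests of mean log2 CPM (prior count 1), which are unadjusted. Over 10 members and 5 injury numbers this gave 50 tests. All 5 comparisons share the same 4 sham samples, and comparisons of 3 samples against 4 cannot reach a p below 0.0571, so 2xCHI and 4xCHI cannot pass.

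After 1xCHI, 3 of 10 members were higher at an exact p under 0.05 (*Ccl2*, *Ccl4* and *Il18*), against 5.4% of the 21804 features with a mean count of at least 1. After 3xCHI, 5 of 10 were higher (*Tnf*, *Ccl2*, *Ccl3*, *Ccl4* and *Cxcl10*), against 4.24% of features. After 5xCHI, 2 of 10 were higher (*Ccl2* and *Ccl4*), against 5.4%. No member was lower at this threshold. *Tnf*, *Ccl2* and *Ccl4* averaged under 1 count in sham, so they entered the set of features with a mean count of at least 1 only through injured samples, and their places in these counts and their p-values below are a description and support no call. Without these 3 genes, 1 of the other 7 members was higher after 1xCHI (*Il18*), 2 after 3xCHI (*Ccl3* and *Cxcl10*) and 0 after 5xCHI. In either direction the threshold was passed by 9.12%, 6.83% and 9.09% of features after 1xCHI, 3xCHI and 5xCHI. All samples lay above all sham samples for *Ccl3* and *Ccl4* after 3xCHI (0.298% of features), and for no member after 1xCHI, 2xCHI, 4xCHI or 5xCHI (0.202%, 3.99%, 2.41% and 0.188% of features). All samples lay below all sham samples for *Ccl3* and *Il33* after 2xCHI (3.62% of features), and for no member after 1xCHI, 3xCHI, 4xCHI or 5xCHI (0.115%, 0.138%, 2.98% and 0.138% of features).

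**Figure D1:**
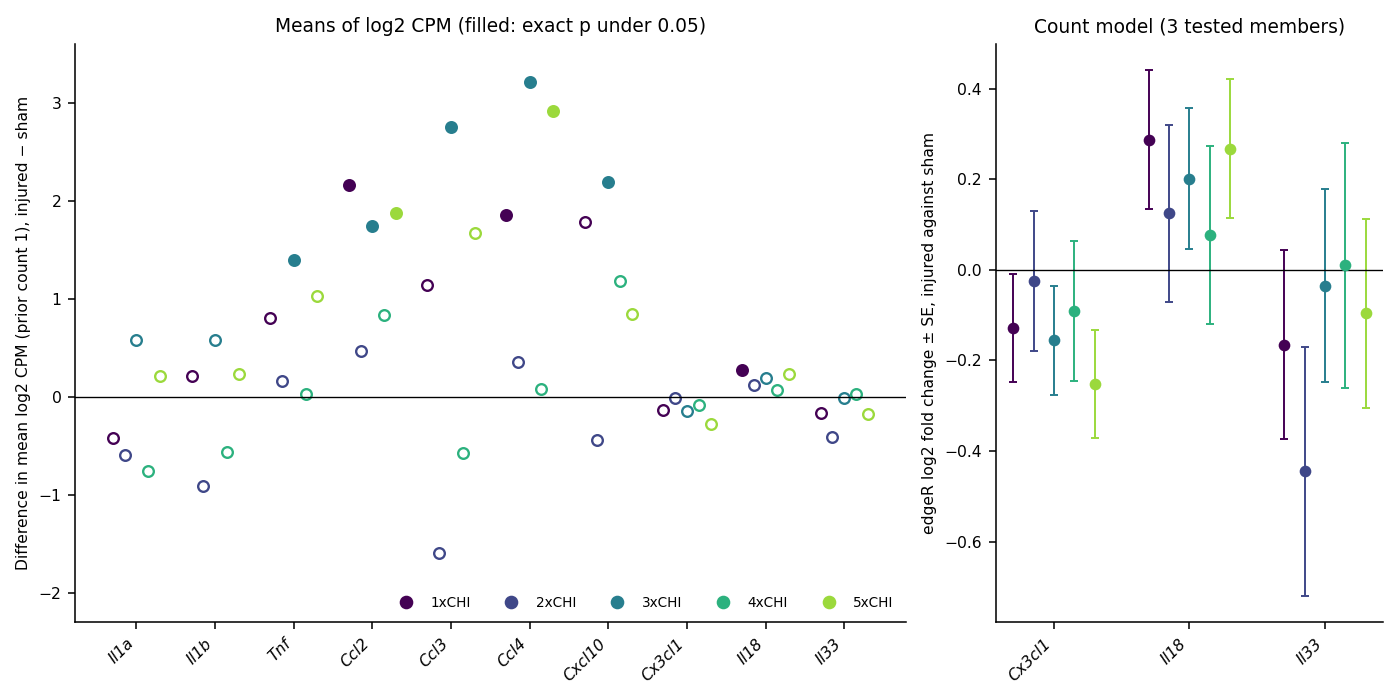
Left, the difference in mean log2 CPM (prior count 1) between injured and sham samples for each member and injury number, filled where the unadjusted exact permutation p was under 0.05; right, edgeR log2 fold change ± SE for the 3 members tested. *Ccl4* after 3xCHI (3.22) and 5xCHI (2.92) and *Ccl3* after 3xCHI (2.75) stand highest, and the 3 tested members lie within 0.45 of 0.

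The CC chemokines *Ccl3* and *Ccl4* (MIP-1 alpha and beta), neighbours on chromosome 11 with 13228 bases between them, gave the clearest pattern. *Ccl3* (chr11:83647844-83649355, minus strand) had 2, 4, 1 and 2 counts in the 4 sham samples. It had 21, 12 and 33 counts at 0.5 h after 3xCHI, 32 and 12 at 4 h, and 23, 20, 12 and 15 at 24 h. All 9 samples after 3xCHI thus lay above all 4 sham samples, a placing that 0.298% of features shared. Mean CPM was 1.07 after 3xCHI against 0.104 in sham, and the ratio of summed counts per effective library was 9.39 (95% interval 4.84 to 20.9, counting error only). The difference in mean log2 CPM was 2.75 (exact permutation p = 0.0028, the smallest possible for 9 against 4). Sample 30, taken 4 h after 3xCHI and left out of the comparisons, had 5 counts of *Ccl3*, and with it the difference was 2.57 (exact permutation p = 0.0020).

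After the first injury *Ccl3* had 5, 11 and 14 counts at 0.5 h, all above sham as in 4.21% of features, a ratio of 4.37 (counting interval 2.02 to 10.5). At 4 h it had 1, 10 and 20 counts, 1 sample overlapping sham, and a ratio of 4.92 (2.29 to 11.8).

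In the 24 h samples after 2xCHI and 4xCHI *Ccl3* was nearly absent. It was listed at 0 in all 3 samples at 24 h after 2xCHI, and after 4xCHI it had 1, 0 and 3 counts. With the 2xCHI group of 3 samples set at a floor of 3 counts, the level at 0.5 h after 3xCHI was 24.5-fold higher. This figure takes the 66 counts at 0.5 h as exact, so it is not a lower limit. Mean CPM at 0.5 h after 3xCHI was 1.19, against 0.104 in sham. The 2xCHI samples all carry numbers 19 to 40, and 2 of the 3 samples at 0.5 h carry numbers 1 to 18. The 24 h samples after 3xCHI had 12 to 23 counts, and those after 1xCHI had 2, 4, 2 and 7. A count model admitting low genes (edgeR's filterByExpr, 18341 features) gave *Ccl3* an unadjusted p of 0.0024 for any difference between injury numbers at 24 h, with an adjusted p of 0.885. *Ccl3* passed that filter only through injured samples in which it was high, so this p is a description and supports no call.

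After 5xCHI *Ccl3* was uneven. Counts were 3, 38 and 4 at 0.5 h, 32, 54 and 2 at 4 h, and 39, 7, 0 and 3 at 24 h, so that 4 samples reached at least 32 counts and 6 had 7 or fewer. The exact permutation test after 5xCHI gave p = 0.136 (difference 1.67), and in the 14 leave-one-out fits p ran from 0.0084 (without sample 33, listed at 0) to 0.217 (without sham sample 35), 1 of them under 0.05. The 4 high samples carried numbers between 1 and 18. Among the samples numbered 19 to 40, *Ccl3* after 5xCHI differed from sham by −0.05 on the log2 scale, whereas after 3xCHI it differed by 2.63. The labels name no batch, and all 2xCHI and 4xCHI samples carry numbers 19 to 40.

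*Ccl4* (chr11:83662584-83664683, plus strand) had 0, 0, 1 and 0 counts in sham. After 3xCHI it had 9, 7 and 21 counts at 0.5 h, 12 and 5 at 4 h, and 16, 15, 8 and 5 at 24 h. Again all 9 samples lay above all sham samples (difference 3.22, exact permutation p = 0.0028). Sample 30 was listed at 0 for *Ccl4*, and with it 9 of 10 samples lay above sham (difference 2.87, exact permutation p = 0.0100). With 1 count in sham the ratio was 46.0, and its counting interval reached from 8.06 to 1835. Counts after 2xCHI were 0, 3 and 0, and after 4xCHI 0, 1 and 0, which overlapped sham.

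After 5xCHI *Ccl4* had 8, 25 and 6 counts at 0.5 h, 24, 37 and 3 at 4 h, and 24, 2, 2 and 1 at 24 h. The difference from sham was 2.92 (exact permutation p = 0.0040), with 9 of 10 samples above all sham samples. Mean *Ccl4* after 5xCHI was 1.03 CPM in the 6 samples numbered 1 to 18 and 0.163 CPM in the 4 numbered 19 to 40. After 1xCHI the difference was 1.85 (exact permutation p = 0.0260), and *Ccl4* was highest at 4 h, with 14, 6 and 20 counts against 1, 5 and 2 at 0.5 h. Leaving out single samples after 1xCHI kept this p under 0.05 in 11 of 14 fits, and it was 0.0699 (permutation) without sham sample 6, 20 or 39. With 1 count in sham, these placings and p-values of *Ccl4* describe the samples and support no call. No sham, 2xCHI or 4xCHI sample reached 10 counts of *Ccl3* or *Ccl4*, so both passed the filterByExpr filter only through the injured samples in which they were high. Their values in that model are given as a description and support no call. For *Ccl4* the log2 fold change was 4.97 (SE 1.30, adjusted p = 0.906) after 3xCHI and 5.20 (SE 1.28, adjusted p = 0.351) after 5xCHI. DESeq2 on the same features gave *Ccl4* an adjusted p of 0.0299 after 5xCHI and 0.0476 at 4 h after 1xCHI, where 0.122% and 0.125% of features were under the threshold. It gave *Ccl3* an adjusted p of 0.0268 at 0.5 h after 3xCHI, where 0.0218% were. EdgeR placed neither under the threshold with all samples, and *Ccl3* at 0.5 h after 3xCHI without samples 8, 10 and 11 (adjusted p = 0.0438, 0.0384% of features).

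**Figure D2:**
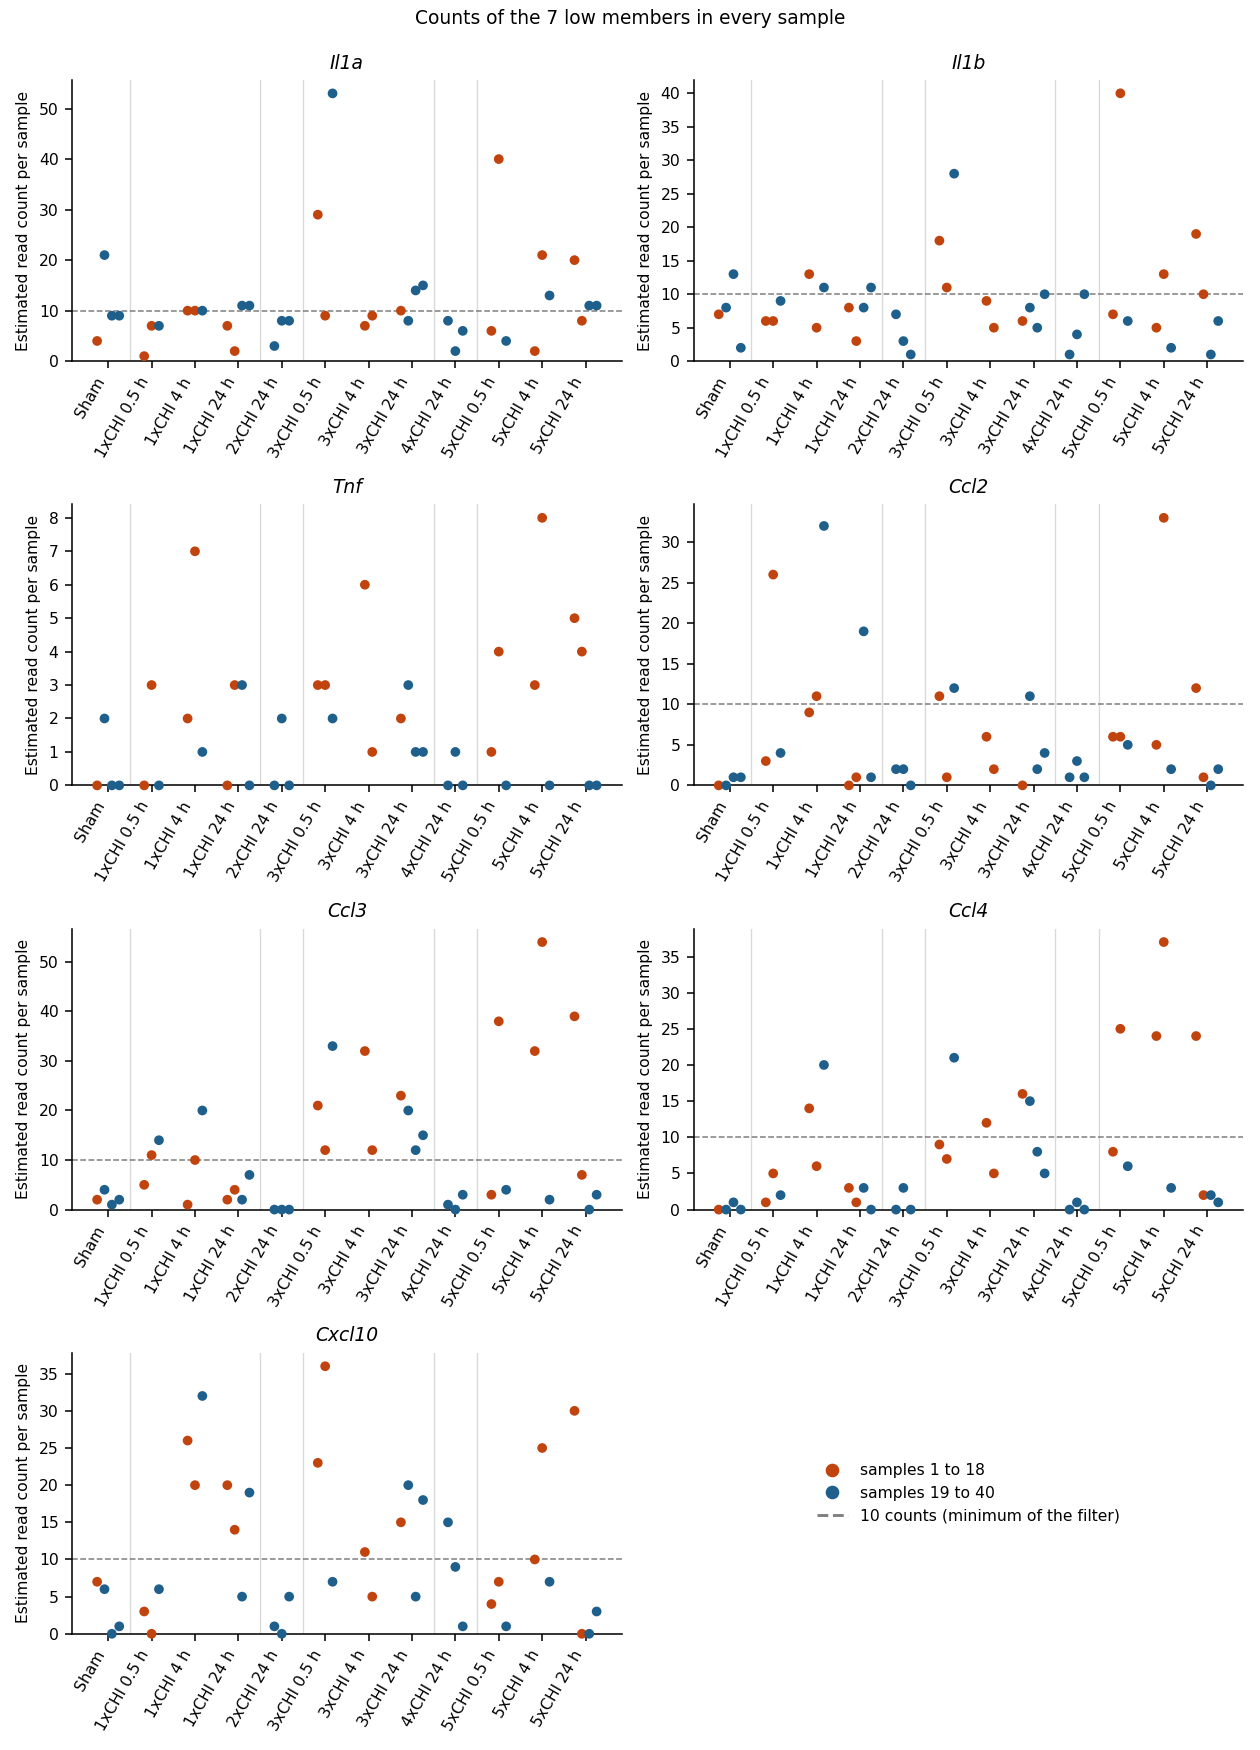
Estimated read counts of the 7 low members in each of the 39 samples, by injury number and time after the last injury, colored by sample number; the dashed line marks 10 counts, which lies above the axis of *Tnf*. *Ccl3* lies at 12 to 33 counts in all 9 samples after 3xCHI, against 1 to 4 in sham and 0 after 2xCHI.

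*Ccl2* (MCP-1, chr11:82035571-82037453, plus strand), the attractant of Ccr2-bearing monocytes, had 0, 0, 1 and 1 counts in sham. After the first injury it had 3, 26 and 4 counts at 0.5 h and 9, 11 and 32 at 4 h, the latter group having the highest mean (0.889 CPM). The next highest mean was 0.624 CPM at 4 h after 5xCHI, where sample 10 held 33 of the counts and the others 5 and 2. After 1xCHI neither 0.5 h nor 4 h overlapped sham, which held for 4.21% and 3.51% of features. At 24 h it had 0, 1, 19 and 1 counts. The pooled difference after 1xCHI was 2.16 (exact permutation p = 0.0460), and p was under 0.05 in 3 of 14 leave-one-out fits, reaching 0.119 without sham sample 6 or 20 (permutation). After 3xCHI the difference was 1.74 (exact permutation p = 0.0420) and after 5xCHI 1.88 (p = 0.0280, permutation). The former was under 0.05 in 2 of 13 leave-one-out fits (highest permutation p = 0.109) and the latter in 12 of 14, with 0.0769 (permutation) without sham sample 6 or 20. Without samples 8, 10 and 11 the permutation p after 5xCHI was 0.0848. With 2 counts in sham, these placings and p-values of *Ccl2* are likewise a description. *Ccl2* shares its locus with *Gm17268* on the other strand, and the strandedness of the counting is not given in the sources used here.

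*Cxcl10* (IP-10, chr5:92346638-92348889, minus strand), an interferon- and NF-kB-driven chemokine, had 7, 6, 0 and 1 counts in sham. It lay above every sham sample at 4 h after 1xCHI (3.51% of features), with 26, 20 and 32 counts, while at 0.5 h it had 3, 0 and 6. The ratio at 4 h was 7.96 (counting interval 4.47 to 15.2). At 24 h after 1xCHI, counts of 20, 14, 5 and 19 overlapped sham. After 3xCHI, counts were 23, 36 and 7 at 0.5 h, 11 and 5 at 4 h, and 15, 20, 5 and 18 at 24 h (pooled difference 2.19, exact permutation p = 0.0140). After 5xCHI the difference was 0.85 (exact permutation p = 0.392). The gene lies within *Art3*, annotated on the other strand.

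*Il1a* (chr2:129299610-129309972, minus strand) and *Il1b* (chr2:129364570-129371139, minus strand) did not pass the exact test against sham at any injury number when time points were pooled. For *Il1a* the differences after 3xCHI and 5xCHI were 0.58 (exact permutation p = 0.285) and 0.21 (p = 0.755, permutation). For *Il1b* they were 0.58 (exact permutation p = 0.271) and 0.24 (p = 0.763, permutation). High values were found at 0.5 h in single samples. *Il1a* had 29, 9 and 53 counts at 0.5 h after 3xCHI against 3, 8 and 8 after 2xCHI, a ratio of 5.34 (counting interval 3.23 to 9.27). *Il1b* had 18, 11 and 28 counts against 7, 3 and 1, a ratio of 5.78 (counting interval 3.00 to 12.2).

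Both genes therefore did not overlap between 2xCHI and 0.5 h after 3xCHI, as was true of 8 of 10 members, against 5.77% of features. The other 6 were *Tnf*, *Ccl3*, *Ccl4*, *Cxcl10*, *Il18* and *Il33*. Over the 3 samples after 2xCHI, *Tnf* had 2 counts, *Ccl4* had 3 and *Ccl3* had 0. The places of these genes in the 8 of 10 are therefore a description and support no call. Without them, *Il1a*, *Il1b*, *Cxcl10*, *Il18* and *Il33* remained. The 2xCHI samples all carry numbers 19 to 40 and 2 of the 3 samples at 0.5 h after 3xCHI carry numbers 1 to 18. At 0.5 h after 5xCHI, sample 8 alone held 40 counts of *Il1a* and 40 of *Il1b*. The other samples of that group had 6 and 4 counts of *Il1a* and 7 and 6 of *Il1b*. At 0.5 h after 1xCHI *Il1a* had 1, 7 and 7 counts against 4, 21, 9 and 9 in sham. In the filterByExpr model the 3xCHI change at 0.5 h was 2.40 on the log2 scale (SE 0.74, unadjusted p = 0.0030) for *Il1a* and 2.49 (SE 0.81, unadjusted p = 0.0043) for *Il1b*. Both adjusted p-values were 1.00. *Il1a* overlaps *Gm14023* and *Il1b* overlaps *Il1bos*, each on the other strand.

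At 0.5 h after 1xCHI, 3 of 10 members lay above sham (*Ccl2*, *Ccl3* and *Il18*), against 4.21% of features, and at 4 h 4 of 10 did (*Ccl2*, *Ccl4*, *Cxcl10* and *Il18*), against 3.51%. At 4 h after 3xCHI, 5 members lay above 2xCHI (*Ccl2*, *Ccl3*, *Ccl4*, *Cxcl10* and *Il33*), against 11.6% of features with only 2 samples in the group, and *Cx3cl1* lay below it, as did 9.41% of features. At 24 h *Ccl3* and *Ccl4* lay above 2xCHI, against 3.66%. At 0.5 h after 5xCHI, *Ccl2*, *Ccl3* and *Ccl4* lay above 4xCHI (9.31% of features), *Il33* lay below it (7.72% of features), and at 4 h *Ccl4* lay above it (7.28%). At 24 h after 1xCHI and after 5xCHI none of the members lay above the group before the injury, against 2.37% and 2.46% of features. Summed counts of *Ccl2* and *Ccl4* were 2 and 1 in sham, 4 and 3 after 2xCHI and 5 and 1 after 4xCHI. Those of *Ccl3* were 0 after 2xCHI and 4 after 4xCHI. Their places above these groups are a description and support no call. Without them, *Ccl3* and *Il18* remained above sham at 0.5 h and *Cxcl10* and *Il18* at 4 h after 1xCHI. *Cxcl10* and *Il33* remained above 2xCHI at 4 h after 3xCHI, and no member remained above 4xCHI.

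*Tnf* (chr17:35199381-35202007, minus strand) had 0, 2, 0 and 0 counts in sham and 1 to 6 counts in every sample after 3xCHI. The exact permutation test gave p = 0.0112 (difference 1.39), on 22 counts in 9 samples against 2 in 4. With sample 30, which was listed at 0, the difference was 1.22 (exact permutation p = 0.0340), and within samples 19 to 40 it was 0.93 (exact permutation p = 0.171). After 5xCHI the 4 samples numbered 19 to 40 were listed at 0, the 6 numbered 1 to 18 had 1 to 8 counts, and the difference was not past the threshold (p = 0.210, permutation). Over the 39 samples *Tnf* had a Spearman correlation of −0.62 with sample number, given as a description. The counting interval of the 3xCHI ratio of 5.16 reached from 1.27 to 45.3, so its size is not known at this depth.

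*Cx3cl1* (chr8:94772009-94782427, plus strand) was the most abundant member. In sham it had 548, 658, 753 and 634 CPM, a mean of 648. The edgeR log2 fold change was −0.13 (SE 0.12) after 1xCHI, −0.03 (SE 0.15) after 2xCHI, −0.16 (SE 0.12) after 3xCHI and −0.09 (SE 0.16) after 4xCHI. After 5xCHI it was −0.25 (SE 0.12, unadjusted p = 0.0399, adjusted p = 0.417). The lowest values, 302 and 426 CPM, were those of samples 11 and 10 at 24 h and 4 h after 5xCHI, and the other 8 samples lay between 494 and 669. Leaving out sham sample 35 moved the 5xCHI value to −0.17, and within samples 19 to 40 it was −0.12 (SE 0.07). In leave-one-out permutation tests the 5xCHI difference ran from −0.35 to −0.19, with p under 0.05 in 1 of 14 (lowest 0.028, highest 0.336). For 3xCHI it ran from −0.23 to −0.08, with permutation p under 0.05 in 1 of 13 (lowest 0.018, highest 0.300).

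Neuron markers moved with *Cx3cl1*. The summed CPM of 10 neuron markers, all passing the filter, was 5937 and 6661 in samples 11 and 10, against 8622 to 9310 in sham. Across the 39 samples its Spearman correlation with *Cx3cl1* was 0.76, given as a description since both share library and depth, and the part of neuron content in the *Cx3cl1* values was not tested. Both also followed sample number. *Cx3cl1* had a Spearman correlation of 0.58 with it. The mean neuron sum was 8085 CPM in samples 1 to 18 and 9096 CPM in samples 19 to 40. In bulk cortex, fewer neurons and less *Cx3cl1* message per neuron cannot be told apart. The genes most like *Cx3cl1* over the 39 samples were *Pdp1* (Spearman 0.86), *Fscn1* (0.84), *Dmtn* (0.83), *Cap2* (0.81) and *Ndfip2* (0.81), and the least like was *Cbx7* (−0.77).

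**Figure D3:**
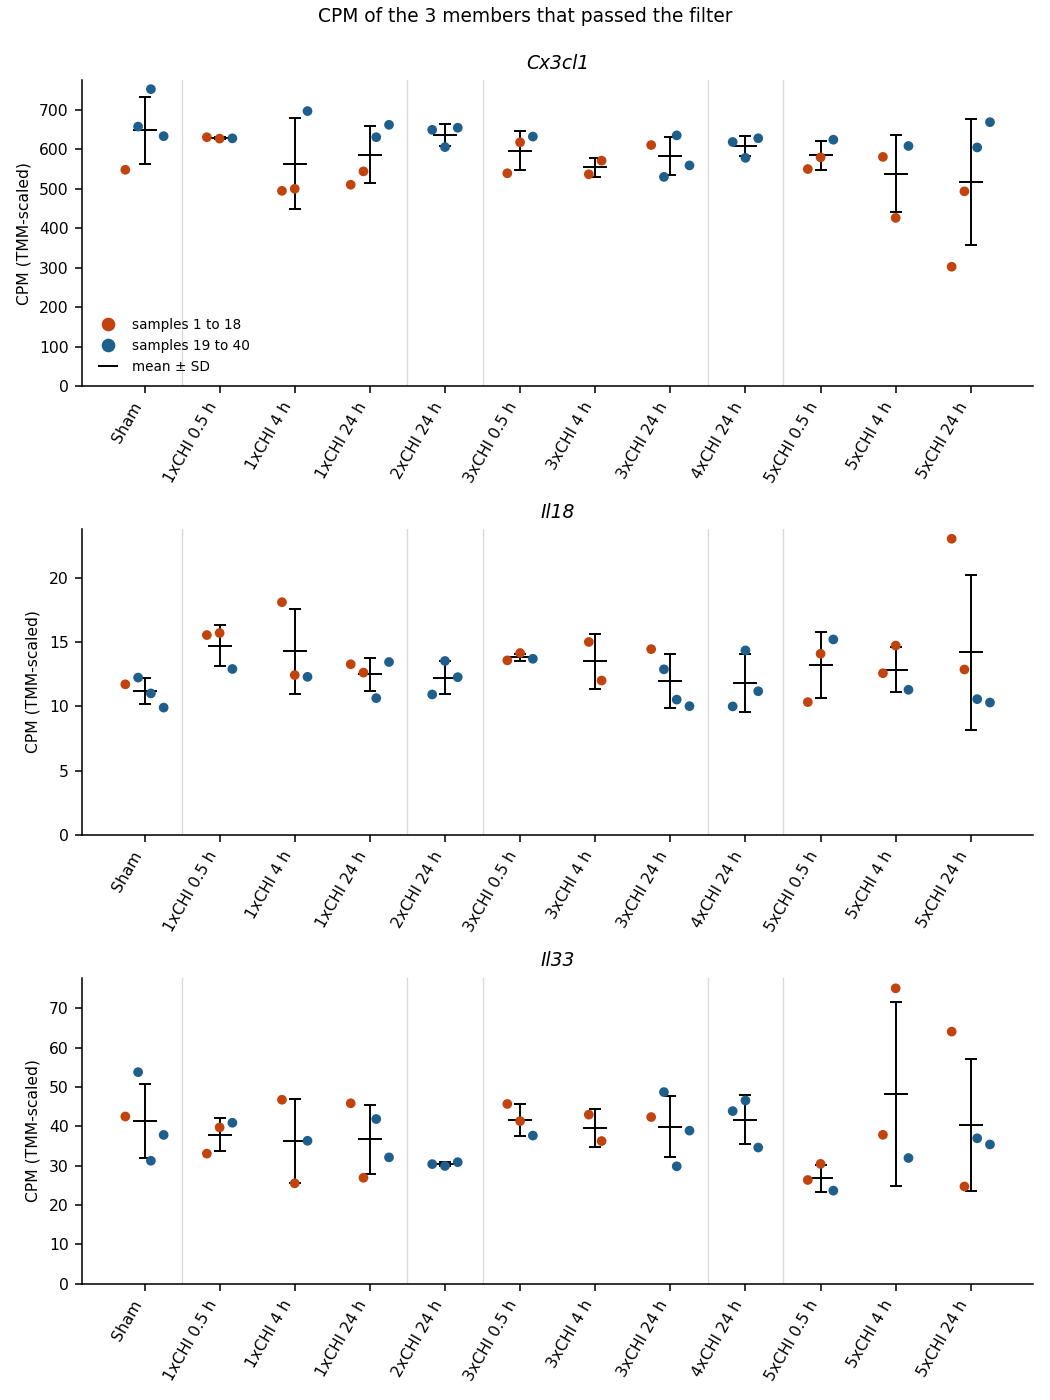
CPM of *Cx3cl1*, *Il18* and *Il33* in each sample by injury number and time, with group mean ± SD and colors for sample number. Samples 10 and 11 after 5xCHI have the lowest *Cx3cl1* (426 and 302 CPM) and the highest *Il33* (75.1 and 64.1 CPM).

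*Il18* (chr9:50554827-50581840, plus strand) had 11.7, 12.2, 11.0 and 9.89 CPM in sham. After 1xCHI, 9 of 10 samples lay above all sham samples, with values of 15.5, 15.7 and 12.9 CPM at 0.5 h, 18.1, 12.4 and 12.3 at 4 h, and 13.3, 12.6, 10.6 and 13.4 at 24 h. The exact permutation test gave p = 0.0260 (difference 0.28), and was lost without sham sample 35 or 39 (permutation p = 0.0629 and 0.0909). The edgeR value was 0.29 (SE 0.15, adjusted p = 0.315). Within samples 19 to 40 the edgeR value was 0.15 (SE 0.16). After 2xCHI to 5xCHI, edgeR values of 0.12, 0.20, 0.08 and 0.27 had SE of 0.20, 0.16, 0.20 and 0.15. The highest sample, 23.0 CPM, was sample 11. Across the 39 samples *Il18* had a Spearman correlation of 0.59 with 10 summed oligodendrocyte markers and of −0.52 with 10 summed neuron markers, given as a description. Its Spearman correlation with sample number was −0.53. The 3 highest samples after 1xCHI, numbered 13, 14 and 15, had oligodendrocyte sums of 7591, 8249 and 7151 CPM, against 5114 to 7353 CPM in sham, and neuron sums of 8142, 8164 and 7419 CPM, below all sham samples. Their blood sums were 513, 503 and 221 CPM, against 172 to 275 CPM in sham. Meningeal fibroblast sums were 761, 1156 and 4038 CPM, against 681 to 1047 CPM. Monocyte and neutrophil sums were 5.03, 8.06 and 17.9 CPM, against 6.24 to 11.4 CPM. The part of these cells in the *Il18* values was not tested. *Il18* was most like *Gabarap* (Spearman 0.84), *Eef1g* (0.82), *Suclg1* (0.82), *Isoc2a* (0.82) and *Commd1* (0.82). *Bco2* and *Tex12* overlap it on the other strand.

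*Il33* (chr19:29925114-29960718, plus strand) had 42.5, 53.8, 31.3 and 37.8 CPM in sham. The 3 samples after 2xCHI, at 30.4, 29.9 and 30.9 CPM, all lay below sham (3.62% of features), and the edgeR value was −0.45 (SE 0.27, adjusted p = 0.943). After 1xCHI, 3xCHI, 4xCHI and 5xCHI it was −0.17, −0.04, 0.01 and −0.10, with SE of 0.21 to 0.27. The 5xCHI samples spread most. Samples 10 and 11 had 75.1 and 64.1 CPM, and the other 8 had 23.7 to 37.9. Without samples 8, 10 and 11, in the filterByExpr model, the 5xCHI value was −0.42 (SE 0.15, unadjusted p = 0.0096, adjusted p = 0.768). At 0.5 h after 5xCHI, 26.4, 30.5 and 23.7 CPM lay below the 43.9, 46.6 and 34.6 CPM after 4xCHI (edgeR −0.64, SE 0.28, unadjusted p = 0.0311, adjusted p = 0.780). *Il33* was most like *Tspan2* (Spearman 0.81), *Pacs2* (0.81), *Rnf13* (0.79), *Ttyh2* (0.78) and the myelin gene *Mag* (0.77), and least like *Gm47415* (−0.79). Its Spearman correlation with the oligodendrocyte sum was 0.63, and samples 10 and 11 had the highest of these sums, 8283 and 9349 CPM. The part of oligodendrocyte content in the *Il33* values was not tested.

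For differences between time points within 1xCHI, 3xCHI and 5xCHI, none of the 3 testable members was called, against 0.0328% of features. Their unadjusted p-values in edgeR ran from 0.185 for *Il33* to 0.881 for *Cx3cl1*. A joint test for any difference among injury numbers at 24 h, 1xCHI to 5xCHI, called none of the 3 members (0% of features). Unadjusted p-values in this edgeR test ran from 0.443 for *Cx3cl1* to 0.646 for *Il18*. The change from the group before the injury was also compared between injury numbers at each time, and no member passed an adjusted p of 0.05 in edgeR with either filter.

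Markers of other cells were read beside the chemokines. The sum of 15 microglia markers was 362 to 413 CPM in sham and 420 to 552 CPM after 3xCHI, without overlap. After 5xCHI it was 376 to 515 CPM in 8 samples, and 984 and 1269 CPM in samples 10 and 11. *Gfap*, the astrocyte filament gene raised in reactive astrocytes, was 124 to 174 CPM in sham, 1627 and 2410 CPM in samples 10 and 11, and 558 CPM in sample 8. After 3xCHI it was 209 to 527 CPM, above every sham sample (edgeR 1.31, SE 0.60, unadjusted p = 0.0343, adjusted p = 0.911). Over the 39 samples *Ccl3* had a Spearman correlation of 0.53 with the microglia sum and 0.71 with *Gfap*, and *Ccl4* one of 0.53 and 0.68. Each chemokine had a Spearman correlation of −0.43 with sample number. The part of these cells in the chemokine values was not tested. Without samples 8, 10 and 11 the filterByExpr value of *Ccl3* after 5xCHI went from 3.02 to 1.76, and after 3xCHI it was 3.22 in both. Of 14 monocyte and neutrophil markers 2 passed the filter, their sum was 4.31 to 20.2 CPM over all samples, and *Ly6g* was listed at 0 in all samples. None of 9 T and B cell markers passed.

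**Figure D4:**
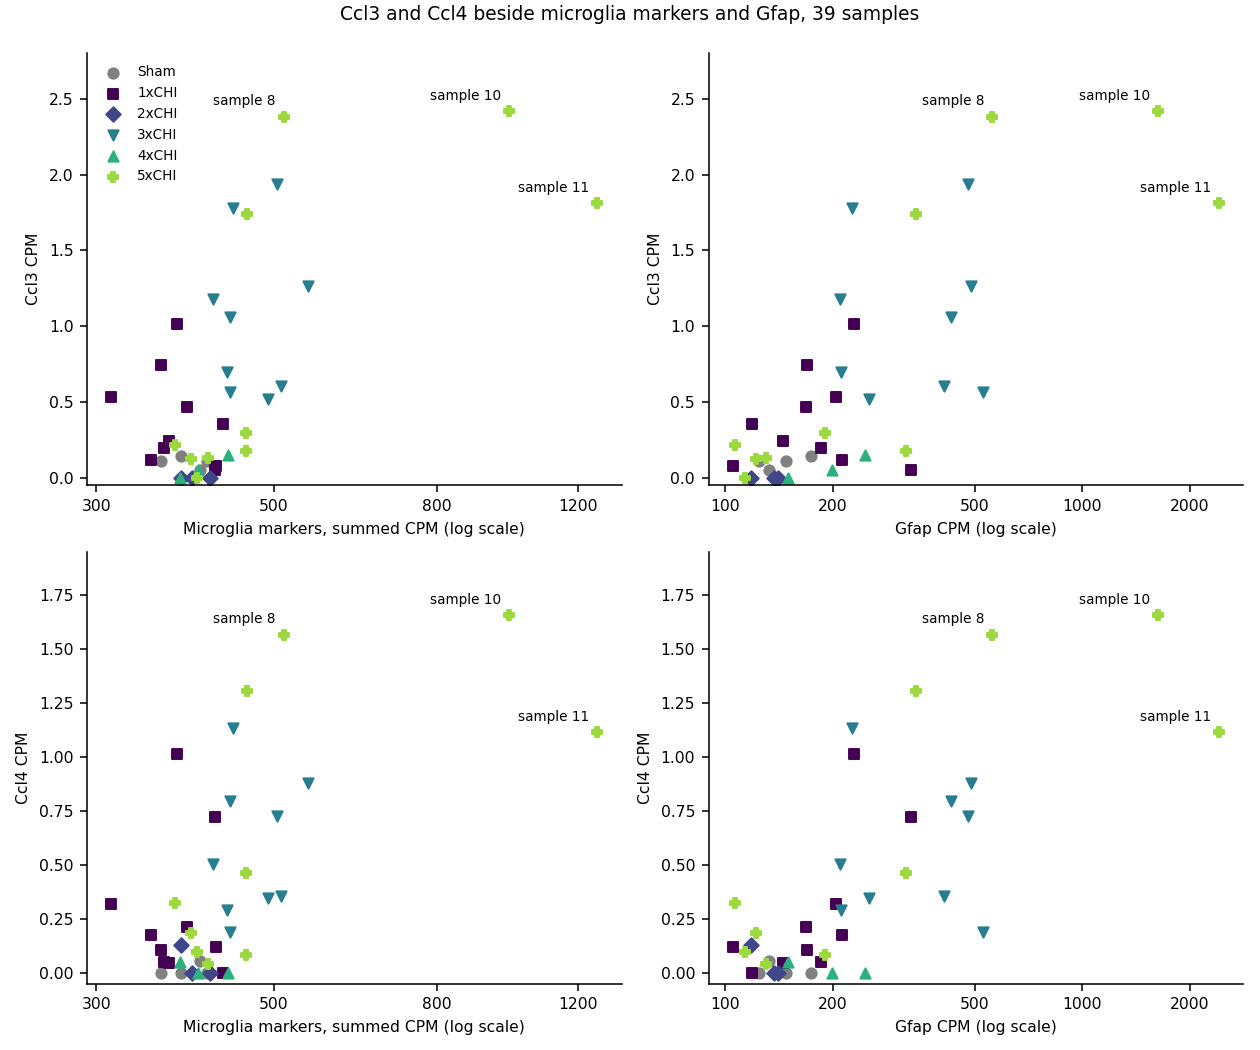
*Ccl3* and *Ccl4* CPM in each of the 39 samples against the summed CPM of 15 microglia markers (left, log scale) and *Gfap* CPM (right, log scale), by injury number. Samples 10 and 11 lie far to the right of the samples after 3xCHI, whose microglia sums are 420 to 552 CPM. *Ccl3* is 2.42 and 1.81 CPM in samples 10 and 11, and after 3xCHI it ranges from 0.519 to 1.94 CPM.

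Of the direct receptors some passed the filter on low counts and some did not. *Cx3cr1*, the microglial fractalkine receptor, had a mean of 49.3 ± 3.6 CPM (SD, n = 4) in sham and 62.3 ± 16.9 (n = 10) after 5xCHI, with an edgeR log2 fold change of 0.34 (SE 0.13, adjusted p = 0.383). *Tnfrsf1a*, the main receptor of tumor necrosis factor, gave 0.73 (SE 0.27, adjusted p = 0.374) after 5xCHI. *Il1r1*, the signaling receptor of interleukin 1, gave 0.36 (SE 0.21, adjusted p = 0.485). *Ccr2*, *Cxcr3*, *Il18r1* and *Il1rl1* did not pass the filter. *Il18r1* had 4 counts in sham over 4 samples and *Cxcr3* had 7.

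The wider pathway was taken from lists of genes. None of the genes in these lists passed an adjusted p of 0.05 after 3xCHI or 5xCHI in edgeR. The counts at an unadjusted p under 0.05 are to be read beside 11.6% of all features after 5xCHI and 3.86% after 3xCHI. Of 13 testable other cytokines, chemokines and growth factors (39 listed), 4 were higher at an unadjusted p under 0.05 after 5xCHI and 1 after 3xCHI. The chemokine *Ccl6* gave 1.93 (SE 0.48, adjusted p = 0.360) after 5xCHI and 1.61 (SE 0.49, adjusted p = 0.911) after 3xCHI. *Cxcl16* gave 1.22 (SE 0.46) after 5xCHI. Of 14 testable NF-kB feedback and early target genes, 3 were higher after 5xCHI at an unadjusted p under 0.05. *Cebpd* gave 1.41 (SE 0.48) and *Socs3*, an inhibitor of cytokine receptor signaling, 1.24 (SE 0.41). Of 18 NF-kB and adaptor genes, 1 was higher and 1 lower. The medians of these 3 lists after 5xCHI were 0.10, 0.29 and 0.05 on the log2 scale, beside 0.01 over all features. Of 12 testable receptors and decoys (20 listed), 5 were higher after 5xCHI and 1 after 3xCHI at an unadjusted p under 0.05, among them the scavenging chemokine receptor *Ackr2* (0.73, SE 0.22, adjusted p = 0.360, after 5xCHI). Of 9 testable processing and shedding genes (13 listed), 4 were higher after 5xCHI, among them the protease *Ctss* (0.68, SE 0.24, adjusted p = 0.372). Of 10 astrocyte markers 4 were higher after 5xCHI, of 10 endothelial markers 2 were higher, of 10 neuron markers 2 were lower and of 10 oligodendrocyte markers 1 was lower. Of 10 meningeal fibroblast and 5 blood markers none passed after 5xCHI. Of 15 microglia markers, 11 were higher after 5xCHI and 1 after 3xCHI at an unadjusted p under 0.05, with medians of 0.87 and 0.43. Samples 10 and 11 stood apart in these lists, with microglia sums of 984 and 1269 CPM, astrocyte sums of 6868 and 7584 CPM and oligodendrocyte sums of 8283 and 9349 CPM. Without samples 8, 10 and 11, in the filterByExpr model, the number higher after 5xCHI was 1 of 19 other cytokines, 1 of 13 receptors and decoys, 0 of 12 processing genes, 0 of 15 NF-kB feedback genes, 0 of 18 NF-kB and adaptor genes, 0 of 10 astrocyte markers and 4 of 15 microglia markers, beside 5.68% of all features in either direction. In the same model 9 of 15 microglia markers were higher after 3xCHI, beside 5.75% of all features in either direction.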

How the data were processed

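Left somatomotor cortex RNA was extracted with column kits, sequenced and counted by a provider. The authors deposited 1 table of estimated counts per gene for 40 samples, not normalized, of which 4.46% of values are not whole. The build named in the submitters' processing notes is mm10. The column headers carry the ending of Salmon's gene-level output. Its version and the alignment and strand settings are not given in the sources used here. Sample 30 was left out, as the study left it out. Counts were rounded. Features under 10 counts in more than 4 of 39 samples were dropped, which left 15224. The main test was edgeR's quasi-likelihood test (edgeR 4.0.16, limma 3.58.1, R 4.3.3) with TMM scaling and Benjamini-Hochberg adjustment. DESeq2 (1.42.0) was an alternative. CPM used TMM-scaled library sizes. Single members were compared by exact two-sided permutation tests of mean log2 CPM (prior count 1), without adjustment, using scipy 1.17.1, among features with a mean count of at least 1. Ratios of summed counts have 95% counting intervals, which cover counting error only. Scripts were tested on simulated data. The members and gene lists were chosen with earlier results of these data known, and so was the split of samples 1–18 from 19–40, which is not a batch named by the study. Named were all members, the 5 features most like each passing member and the 1 least like it by Spearman correlation, and from each list the genes called or else the pair with the greatest absolute change after 3xCHI and 5xCHI, with the direct receptors; a few genes under this rule are not reported here. The labels do not say more of how samples relate, so p-values measure the spread between these samples. Other alternatives were the counting filter, the scaling, leaving out each sample, all 40 samples, the sample range as covariate, and the filterByExpr filter in several fits and the fits without samples 8, 10 and 11. The filterByExpr combinations, the fits without samples 8, 10 and 11, and the exact tests that left out single samples or included sample 30 were chosen after seeing the data. Promoters came from RefSeq (GRCm38.p6), and gene positions from GENCODE M21.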

Additional observations from a re-analysis of the deposited data

Results flagged for a closer look

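In 14 of 70 groups of 4 to 10 samples, 1 sample lay far from the others by Dixon's criterion. A rate of 1 in 20 would give 3.5, but it holds for independent groups with normal spread. Several of these groups lie near 0 counts, and the 24 h groups are part of the pooled ones. No excess is therefore read from the 14. Sample 11, at 24 h after 5xCHI, was far above the other samples of its group for *Ccl2* (0.557 CPM), *Ccl3* (1.81 CPM), *Ccl4* (1.11 CPM) and *Cxcl10* (1.39 CPM), and above all other 5xCHI samples for *Il18* (23.0 CPM). Sample 8 stood apart among all 5xCHI samples for *Il1a* (2.50 CPM) and *Il1b* (2.50 CPM), and sample 10 for *Ccl2* (1.48 CPM). After 3xCHI, sample 22 stood apart for *Il1a* (2.86 CPM) and sample 1 for *Tnf* (0.363 CPM). After 1xCHI, sample 16 stood apart for *Tnf* (0.372 CPM) and sample 26, at 24 h, for *Ccl2* (0.765 CPM). In sham, sample 20 stood apart for *Tnf* (0.0713 CPM) and sample 35 for *Ccl4* (0.0536 CPM), each on no more than 2 counts. Sample 30, which entered no comparison, had 0.0952 *Ccl2* and 0.238 *Ccl3* on the CPM scale without TMM factors, above every sham sample, and was listed at 0 for *Ccl4* and *Tnf*.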

How the results depend on the processing

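Most values kept their direction and their side of the threshold. With the low genes admitted (filterByExpr), DESeq2 called 1 member after 5xCHI (*Ccl4*, adjusted p = 0.0299), 1 at 4 h after 1xCHI (*Ccl4*, adjusted p = 0.0476) and 1 at 0.5 h after 3xCHI (*Ccl3*, adjusted p = 0.0268), where edgeR called none. Both genes passed that filter only through injured samples, so these calls support nothing. EdgeR without samples 8, 10 and 11 also called 1 at 0.5 h after 3xCHI (*Ccl3*, adjusted p = 0.0438). Of the 50 exact tests, 10 passed, 7 of them for *Tnf*, *Ccl2* and *Ccl4*, which averaged under 1 count in sham and so describe the samples only. Leaving out 1 sample gave 6 to 11, 6 of them without sham sample 20 or 39, including sample 30 left it at 10, and samples 19 to 40 gave 0, where 4 samples against 3 cannot pass. Within samples 19 to 40, the 5xCHI difference turned negative for *Il1a* (−0.26), *Il1b* (−0.70) and *Ccl3* (−0.049). Without samples 8, 10 and 11 it did so for *Il1a* (−0.31) and *Il1b* (−0.37). Leaving out single samples moved values across 0 as follows. In edgeR these were *Cx3cl1* after 2xCHI (−0.11 to 0.054), *Il18* after 4xCHI (−0.084 to 0.18), and *Il33* after 3xCHI (−0.15 to 0.12), 4xCHI (−0.10 to 0.16) and 5xCHI (−0.26 to 0.058). Among differences in mean log2 CPM they were, after 5xCHI, *Il1a* (−0.092 to 0.43) and *Il1b* (−0.15 to 0.58), and, with neither sign past the threshold, *Il1b* after 1xCHI (−0.18 to 0.55) and 4xCHI (−1.14 to 0.048), *Cxcl10* after 2xCHI (−1.16 to 0.17), *Ccl4* after 2xCHI (−0.26 to 0.66) and 4xCHI (−0.26 to 0.35), and *Tnf* after 2xCHI (−0.32 to 0.48) and 4xCHI (−0.32 to 0.35). The same held there for *Cx3cl1*, *Il18* and *Il33* in comparisons already named, except *Il33* after 5xCHI, which stayed negative (−0.30 to −0.039). The cause was not tested. No paired analysis was possible because each sample number is used once. Depth limits the 7 low members.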
